A study of Homo sapiens with 6 samples.

Results

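The genes described here are 34 genes of the Fanconi anemia pathway and of homologous recombination, chosen by name from the table that holds all libraries of the study. They were chosen with earlier results of these data known, so no test over the list was run. All 34 were found among its 30483 genes, and all 34 were among the 15734 that entered the test, for which a mean over the libraries of 10 normalized counts or more was required. The genes were measured by RNA sequencing in A549 cells, a long-established human line that was grown out of a lung adenocarcinoma. One group of 3 libraries came from cells given 5 µM anlotinib for 48 h, and the other 3 libraries came from cells given DMSO for the same time. Anlotinib blocks tyrosine kinases of the cell surface, including receptors for VEGF, PDGF and FGF. Both groups were the same unmodified line in RPMI-1640 with serum, and DMSO is the solvent. The general treatment note names anlotinib for every library, so the groups rest on the treatment label of each library. The study asks through which pathways anlotinib acts on the pressure in the tumor stroma, and its title names the matrix and RhoA/ROCK signalling.

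The Fanconi pathway repairs links that tie the strands of DNA together. Its core complex, with the conjugating enzyme UBE2T, places ubiquitin on FANCD2 and FANCI, which then clamp onto DNA and bring in nucleases. Homologous recombination copies a broken stretch from the sister chromatid: nucleases first trim the broken end, BRCA1, PALB2 and BRCA2 then prepare the search for the template, XRCC2, XRCC3 and the RAD54 proteins assist in it, and the BLM and MUS81 complexes take the joined molecules apart. Recombination uses the sister chromatid as its template, so it works mainly in S phase and after it, and many of its genes are known targets of E2F transcription factors.

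The libraries held 13886120 to 15386107 reads assigned to genes. A549 was checked against its epithelial markers: the keratin genes KRT8, KRT18 and KRT7 had 15040.1 to 23132, 5591 to 7163 and 17178 to 26039 normalized counts in anlotinib libraries, against 20693 to 21397, 7825 to 8189 and 41891 to 45221 in DMSO libraries. Among the 11 epithelial markers KRT7 and KRT19 had the smallest p, and KRT7 fell (limma adjusted p = 0.000354) while KRT19 rose (adjusted p = 0.000186). CDH1 also rose (adjusted p = 0.0171), and KRT8, KRT18, CLDN4, MUC1 and NKX2-1 did not pass. CLDN4 had 81.1 to 131 normalized counts over all libraries, MUC1 38.1 to 57.1 and NKX2-1 13.3 to 25.7. EPCAM, SFTPB and SFTPC were too low to be tested. EPCAM had at most 11.5 in any library and SFTPB at most 5.04. SFTPC, a marker of alveolar type II cells, had 6.05 to 9.75 with anlotinib and 0 to 1.07 with DMSO. Of 15 markers of fibroblasts, endothelium and blood, 12 were in the table, and their summed level was 202 to 222 in anlotinib libraries and 187 to 245 in DMSO libraries, most of it from THY1, which fell (limma adjusted p = 0.0235), and from CD14 and PDGFRA, which did not pass. The call of THY1 was lost without anlotinib replicate 2 and without any 1 of the DMSO replicates. KDR had 7.06 to 18.1 normalized counts with anlotinib and 7.14 to 13.3 with DMSO, LUM had 4.75 to 7.98 with anlotinib and 2.14 to 4.08 with DMSO, and COL3A1 had at most 4.04. PECAM1, VWF, CDH5, PTPRC, DCN and HBA1 stayed under 4 normalized counts in every library. On the first component of variation, which held 57.9% of the variance, anlotinib library 1 lay nearest to DMSO, at 19.1 against 36.2 and 41 for anlotinib libraries 2 and 3 and -34.9 to -30.1 for DMSO libraries.

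After anlotinib, 26 of the 34 genes fell, 0 rose and 8 did not pass the test. Genes were tested with limma-trend after a pseudocount of 1 and a log2 transform, so that fold changes of weakly expressed genes come out too small, and a gene passed at a Benjamini-Hochberg adjusted p under 0.05 over all genes tested. Among all genes tested, 12.7% were called lower and 10.5% higher. Decreases of at least 2-fold were found for 16 of the 34 genes, against 2.31% of all genes tested. The median log2 fold change of the 34 genes was -0.94, and that of all genes tested was -0.02. The largest decreases were those of the nuclease gene EXO1, of RMI2 and of the recombination gene XRCC2, which were 4.07-fold, 3.71-fold and 3.45-fold lower. At an unadjusted p under 0.05, limma also gave 0 of the 34 genes as higher and 29 as lower. The share of all genes tested at that threshold was not counted, so these counts have no background. With edgeR and DESeq2 on the recovered reads, 0 of the 34 genes were called higher. In bulk RNA, fewer cells of a type and less RNA per cell cannot be told apart.

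**Figure D1:**
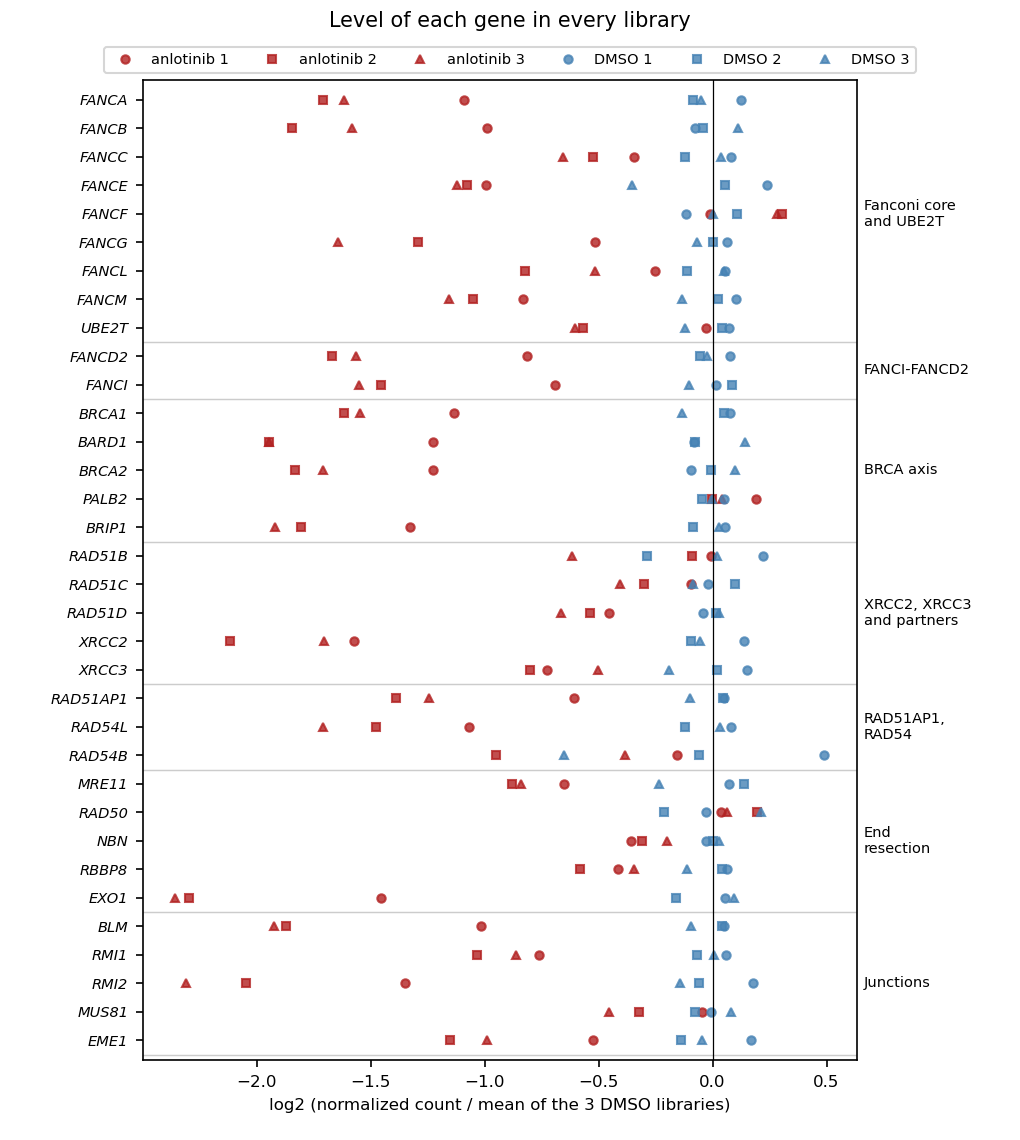
Level of each of the 34 genes in every library, as the log2 ratio of its normalized count to the mean of the 3 DMSO libraries. Each row is a gene, sorted by role, red marks are anlotinib libraries and blue marks DMSO libraries. The red marks lie left of all blue marks for 27 genes, and EXO1 and RMI2 lie farthest left.

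The libraries of the groups did not overlap for 27 of the 34 genes, all of them lower with anlotinib, and for 0 genes in the other direction. Among all genes tested, 21.4% lay wholly lower and 18.8% wholly higher in the anlotinib libraries. The summed level of the 26 genes that fell was 57.5%, 41.9% and 42.7% of the DMSO mean in anlotinib libraries 1, 2 and 3, against 104%, 99.5% and 96.6% in DMSO libraries 1, 2 and 3. Anlotinib library 1 thus lay between the other anlotinib libraries and DMSO. It was the highest anlotinib library for 23 of the 26 genes, and for 70.8% of all 2003 genes that fell. The authors' deposited table also lists 26 of the 34 genes as lower at an adjusted p under 0.05, the same 26. The shares were 11.2% of the 15734 genes tested here and 5.83% of all genes in that table. Its log2 fold changes for the 34 genes equal those of DESeq2 on the recovered reads, so it is not separate support.

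Promoters are shown for genes that moved together, because many of them carry letters of the E2F core. RefSeq promoter sequences, from 250 bases before the annotated start to 50 bases from it on, were found for 30 of the 34 genes on GRCh38.p14, with more than 1 start for 9 of them. FANCI, RAD54B, NBN and RMI2 had no entry. The E2F core was searched on both strands in 4 forms, which were TTCCCGC and then TTGGCGC and then TTCGCGC and then TTGCCGC. A gene with several starts counted where any start held one. At least 1 form was found for 19 of the 30 genes, or 63.3%, against 24.8% of 10861 tested genes with an entry. It was found for 18 of 23 genes that fell and for 1, FANCF, of 7 that did not pass. BRCA2, FANCB, FANCM, MRE11 and RBBP8 fell and held none. The median log2 fold change was -1.15 with the letters and -0.40 without them. Both medians include genes that did not pass. Base composition was not matched, and the difference was not tested. The CCAAT box, searched as CCAAT on both strands, was found for 46.7% of the 30 genes and 42.5% of the tested genes. The cell cycle homology element, searched as TTTGAA and also as TTCGAA on both strands, was found for 10% of the 30 genes and 15.2% of the tested genes. A match of letters is a description and not a bound site.

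The 6 genes with the smallest p whose E2F letters lie in the stretch from 100 bases before a start to 30 bases from it on are given below, 5′ to 3′ on the strand of the gene, with these letters in capitals. BRCA1 and EXO1 each have a further annotated start whose promoter holds none of these letters and is not shown. BRCA2, which fell, and its partner PALB2, which did not pass, follow; both hold none of these letters, and this pair was picked for contrast once its values had been seen.
XRCC2 (chr7:152676112-152676241, minus strand): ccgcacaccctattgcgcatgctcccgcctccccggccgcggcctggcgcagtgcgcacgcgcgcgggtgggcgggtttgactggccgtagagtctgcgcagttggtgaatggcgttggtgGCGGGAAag
BRCA1 (chr17:43125335-43125464, minus strand): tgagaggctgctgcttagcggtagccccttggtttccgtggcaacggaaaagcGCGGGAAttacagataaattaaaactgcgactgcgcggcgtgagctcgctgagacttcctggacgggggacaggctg
BRIP1 (chr17:61863499-61863628, minus strand): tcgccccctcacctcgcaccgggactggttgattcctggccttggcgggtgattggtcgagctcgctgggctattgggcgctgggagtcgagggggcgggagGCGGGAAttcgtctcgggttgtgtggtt
EXO1 (chr1:241848104-241848233, plus strand): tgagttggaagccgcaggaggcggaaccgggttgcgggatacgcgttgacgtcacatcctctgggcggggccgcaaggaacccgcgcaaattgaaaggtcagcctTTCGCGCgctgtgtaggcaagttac
FANCA (chr16:89816618-89816747, minus strand): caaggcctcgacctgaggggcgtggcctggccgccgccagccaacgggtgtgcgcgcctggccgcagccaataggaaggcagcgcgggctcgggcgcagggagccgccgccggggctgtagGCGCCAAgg
BARD1 (chr2:214809654-214809783, minus strand): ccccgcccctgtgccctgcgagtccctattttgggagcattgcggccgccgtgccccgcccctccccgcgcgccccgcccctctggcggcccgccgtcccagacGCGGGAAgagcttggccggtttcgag
BRCA2 (chr13:32315408-32315537, plus strand): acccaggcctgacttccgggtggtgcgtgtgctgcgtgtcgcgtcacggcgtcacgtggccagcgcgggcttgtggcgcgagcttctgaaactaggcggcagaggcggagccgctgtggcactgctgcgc
PALB2 (chr16:23641281-23641410, minus strand): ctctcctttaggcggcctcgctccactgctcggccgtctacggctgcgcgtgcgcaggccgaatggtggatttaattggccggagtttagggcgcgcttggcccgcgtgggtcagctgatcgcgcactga

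XRCC2, BRCA1, BRIP1 and BARD1 hold the same letters, TTCCCGC read on the opposite strand, although at different distances from the start, with their first base at position 22 in XRCC2, -47 in BRCA1, 3 in BRIP1 and 5 in BARD1. EXO1 holds TTCGCGC at position 6. FANCA holds TTGGCGC on the opposite strand at position 22, and a further match lies before the stretch shown. Positions count from 1 at the annotated start, with negative numbers before it.

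The Fanconi core complex, which recognises the damage and carries the ubiquitin ligase, fell in most of its members. Of 9 genes with UBE2T, 7 fell and 2 did not pass, with a median log2 fold change of -1.0. FANCA, a scaffold subunit (GRCh38, chromosome 16, 89737549 to 89816657), had 442, 288 and 307 normalized counts in anlotinib libraries 1, 2 and 3, against 1028, 888 and 909 in DMSO libraries. Every anlotinib library lay below every DMSO library, and FANCA was 2.76-fold lower (log2 fold change -1.47, SE 0.14, limma adjusted p = 2.03e-05). ZNF276 on the opposite strand shares 23.6% of the exon bases of FANCA and stood at 0.11 (adjusted p = 0.481). Its mean over the libraries was 582 normalized counts. No strand setting is given for the counting, so the level of FANCA is uncertain. FANCB, which binds the ligase subunit FANCL, had 103, 57 and 68.3 normalized counts with anlotinib, against 194, 199 and 221 with DMSO (adjusted p = 0.000255). FANCG, a partner of FANCA, had 704, 411 and 322 with anlotinib, against 1051, 1008 and 959 with DMSO, so that anlotinib library 1 lay closer to DMSO than to the other anlotinib libraries (-1.15, SE 0.21, adjusted p = 0.00182).

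The other subunits fell by less or stayed without a call. FANCE, which links the core to FANCD2, had 49.4, 46.6 and 45.2 normalized counts with anlotinib, against 116, 102 and 77 with DMSO, and the anlotinib libraries lay close together (adjusted p = 0.0026). FANCM, the translocase that anchors the core to DNA, had 134, 115 and 107 with anlotinib, against 256, 242 and 217 with DMSO, a log2 fold change of -1.0 (adjusted p = 0.000295). FANCC, another core subunit, had 402, 355 and 324 with anlotinib, against 539, 469 and 523 with DMSO, without overlap (-0.50, SE 0.11, adjusted p = 0.00624). These 3 genes were each lower in every anlotinib library than in any DMSO library. FANCL, the ligase itself, fell by 0.52, with 219.9, 148 and 183 with anlotinib against 272, 242 and 271 with DMSO (adjusted p = 0.0235). Its call was lost without anlotinib replicate 2, DMSO replicate 1 or DMSO replicate 3 (adjusted p = 0.12, 0.091 and 0.088). VRK2 on the opposite strand shares 18.7% of the exon bases of FANCL. VRK2 had a mean over the libraries of 476 normalized counts and stood at -0.20 (adjusted p = 0.136). The level of FANCL is therefore uncertain too.

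FANCF and UBE2T did not pass. FANCF, an adaptor subunit encoded by a gene without introns, had 186, 232 and 228 normalized counts with anlotinib, against 173, 202 and 188 with DMSO, and the groups overlapped (0.19, 95% interval -0.10 to 0.48, adjusted p = 0.333). UBE2T had 564, 388 and 379 with anlotinib, against 606, 593 and 529.8 with DMSO. Anlotinib library 1 lay within the DMSO range and the other anlotinib libraries lay below it (-0.40, 95% interval -0.71 to -0.09, adjusted p = 0.0613). Without anlotinib replicate 1, UBE2T passed (adjusted p = 0.00019). Per kilobase of annotated exons, UBE2T had the highest level of the 34 genes in DMSO libraries. Its mean was 349 normalized counts per kilobase there and 269 in anlotinib libraries.

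FANCD2 and FANCI, the pair that the core complex marks with ubiquitin, both fell. FANCD2 (chromosome 3, 10026414 to 10101930) had 340 normalized counts in anlotinib library 1 and 188 and 202 in libraries 2 and 3, against 629, 575 and 588 in DMSO libraries (-1.34, SE 0.18, limma adjusted p = 0.000237). FANCI (chromosome 15, 89243949 to 89317261) had 1329.7, 784 and 732 with anlotinib, against 2169.7, 2276 and 1997 with DMSO (-1.23, SE 0.18, adjusted p = 0.000357). For both genes anlotinib library 1 was the highest anlotinib library and still lay below all DMSO libraries. The ratio of FANCD2 to FANCI per kilobase was 0.237, 0.222 and 0.256 with anlotinib and 0.269, 0.234 and 0.273 with DMSO, and the groups overlapped (exact permutation test, two-sided, p = 0.3).

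In the group of BRCA1, BRCA2 and their partners, 4 of 5 genes fell, with a median log2 fold change of -1.58 over the 5. BRCA1, which promotes end trimming and recruits PALB2 (chromosome 17, 43044295 to 43170245), had 639.6, 457 and 481 normalized counts with anlotinib, against 1479, 1452 and 1280.4 with DMSO (-1.43, SE 0.12, limma adjusted p = 8.69e-06). BARD1, which forms a ubiquitin ligase with BRCA1 (chromosome 2, 214725646 to 214809711), had 176, 107 and 107 with anlotinib, against 389.8, 391 and 455 with DMSO (-1.69, SE 0.18, adjusted p = 3.42e-05). BRCA2, a mediator of the strand exchange (chromosome 13, 32315474 to 32400266), had 158, 104 and 113 with anlotinib, against 346, 368 and 396 with DMSO (-1.58, SE 0.16, adjusted p = 2.16e-05). Each of the 3 genes was at least 2.69-fold lower, and anlotinib library 1 lay above libraries 2 and 3. BRIP1, a helicase that binds BRCA1 (chromosome 17, 61681266 to 61863521), had 166, 119 and 109.9 with anlotinib, against 432, 392 and 424 with DMSO, and was 3.19-fold lower (adjusted p = 1.21e-05).

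PALB2, which bridges BRCA1 and BRCA2, did not pass. It had 321, 280.5 and 289 normalized counts with anlotinib, against 291, 272 and 280.3 with DMSO (0.07, 95% interval -0.16 to 0.31, adjusted p = 0.665). The ratio of PALB2 to BRCA2 per kilobase was 5.24, 7 and 6.64 in anlotinib libraries and 2.18, 1.91 and 1.83 in DMSO libraries, a difference of 1.67 on the log2 scale without overlap. The ratio of BARD1 to BRCA1 was 0.416, 0.356 and 0.338 with anlotinib against 0.399, 0.408 and 0.538 with DMSO, with overlap (exact permutation p = 0.3). Such ratios were compared for 9 pairs of partner genes, which were picked once their values had been seen. With 3 against 3 libraries the smallest two-sided exact p is 0.1, so no ratio could pass. Pairs without overlap had an exact permutation p of 0.1, which became 0.15 after Benjamini-Hochberg adjustment over the 9 pairs.

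**Figure D2:**
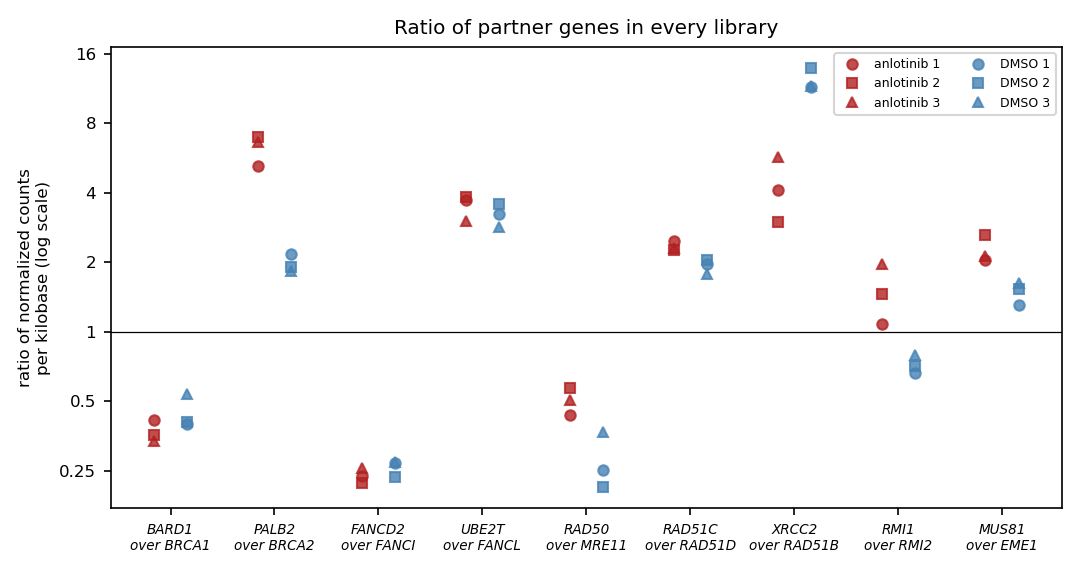
Ratio of the normalized counts per kilobase of 9 pairs of partner genes in every library, on a log scale, with anlotinib libraries in red and DMSO libraries in blue. PALB2 over BRCA2 was 5.24 to 7 with anlotinib and 1.83 to 2.18 with DMSO, XRCC2 over RAD51B was 3 to 5.71 and 11.5 to 13.9, and FANCD2 over FANCI overlapped between the groups.

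XRCC2, XRCC3, RAD51B, RAD51C and RAD51D, whose proteins form complexes with each other that promote recombination, changed unequally. Of these 5 genes, 3 fell and 2 did not pass. XRCC2 (chromosome 7, 152644779 to 152676165) had 159, 109 and 145 normalized counts with anlotinib, against 520.5, 443 and 455 with DMSO, and had the smallest p of the 34 genes (-1.79, SE 0.15, limma adjusted p = 6.08e-06). RAD51D, its direct partner, fell by 0.55, with 378, 357 and 327 with anlotinib against 503, 524 and 528 with DMSO (adjusted p = 0.00183). XRCC3, which pairs with RAD51C, had 243, 231 and 284 with anlotinib, against 447, 408 and 353 with DMSO (-0.67, SE 0.13, adjusted p = 0.00223). KLC1 on the opposite strand shares 76.7% of the exon bases of XRCC3 and stood at -0.03 (adjusted p = 0.863), and no strand setting is given for the counting, so the level of XRCC3 is uncertain.

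RAD51C, a member of both complexes, had 502, 435 and 404 normalized counts with anlotinib, against 529, 574 and 505 with DMSO. All anlotinib libraries lay below all DMSO libraries, by a small margin, and the gene did not pass (-0.26, 95% interval -0.50 to -0.03, adjusted p = 0.0985), although it did without anlotinib replicate 1 (adjusted p = 0.012). RAD51B had 59.5, 56.1 and 39 with anlotinib against 69.6, 49 and 60.6 with DMSO, with overlap (-0.22, 95% interval -0.71 to 0.28, adjusted p = 0.534). Per kilobase, RAD51B and the translocase gene RAD54B had the lowest levels of the 34 genes in DMSO libraries, at 7.99 and 7.6. The level of RAD54B is uncertain, because another gene on the same strand shares most of its exon bases. The ratio of XRCC2 to RAD51B per kilobase was 4.13, 3 and 5.71 with anlotinib and 11.5, 13.9 and 11.6 with DMSO, and that of RAD51C to RAD51D was 2.47, 2.27 and 2.3 with anlotinib and 1.96, 2.04 and 1.78 with DMSO; neither ratio overlapped between the groups.

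Of RAD51AP1 and the RAD54 translocases, which act at the pairing with the template, 2 of 3 genes fell. RAD51AP1, which promotes this pairing, had 199, 116 and 128 normalized counts with anlotinib, against 314, 313 and 283 with DMSO (-1.08, SE 0.18, limma adjusted p = 0.001). RAD54L, a translocase that drives the exchange of strands (chromosome 1, 46247688 to 46278473), had 131, 98.9 and 84.2 with anlotinib, against 291, 253 and 281 with DMSO (-1.41, SE 0.16, adjusted p = 8.20e-05). LRRC41 on the opposite strand shares 25.1% of the exon bases of RAD54L and stood at 0.04 (adjusted p = 0.764). Its mean over the libraries was 1288 normalized counts. No strand setting is given for the counting, so the level of RAD54L is uncertain. RAD54B, a paralog of RAD54L, had 36.3, 20.9 and 31 with anlotinib against 56.8, 38.8 and 25.7 with DMSO, and its groups overlapped (-0.41, 95% interval -1.10 to 0.28, adjusted p = 0.388). RAD54B has the fewest reads of the 34 genes and shares 59.1% of its exon bases with FSBP on the same strand.

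The genes that trim broken ends spanned the whole range from the largest decrease to no call. EXO1, the long-range nuclease (chromosome 1, 241847967 to 241895148), had 219, 122 and 117 normalized counts with anlotinib, against 623, 536 and 639.7 with DMSO (-2.02, SE 0.20, limma adjusted p = 2.00e-05). MRE11, the nuclease that opens the trimming, had 361, 309 and 317 with anlotinib, against 597, 624 and 483 with DMSO (-0.78, SE 0.12, adjusted p = 0.000587). RAD50, which forms a complex with MRE11, had 199.8, 223 and 204 with anlotinib, against 191, 168 and 226 with DMSO, and the groups overlapped (0.11, 95% interval -0.19 to 0.41, adjusted p = 0.611). A gene model on the same strand shares 79.7% of the exon bases of RAD50, so its count is uncertain.

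NBN, a further subunit of that complex, had 827, 855 and 923 normalized counts with anlotinib, against 1039.9, 1061 and 1082 with DMSO. The groups did not overlap, and the decrease of 1.22-fold was the smallest that passed (adjusted p = 0.028). Its call was lost without anlotinib replicate 2 or any DMSO replicate and with scaling by library totals (adjusted p = 0.072 to 0.15). RBBP8, encoding CtIP, the cofactor of MRE11, had 377, 336 and 395 with anlotinib against 525, 517 and 465 with DMSO (-0.44, SE 0.11, adjusted p = 0.00965), and its call was lost without anlotinib replicate 2 or DMSO replicate 1 (adjusted p = 0.064 and 0.052). The ratio of RAD50 to MRE11 per kilobase was 0.435, 0.569 and 0.507 with anlotinib and 0.251, 0.212 and 0.368 with DMSO, without overlap. The count of RAD50 is uncertain for the reason given above, and so is this ratio.

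The complexes that take joined molecules apart fell in 4 of 5 genes. BLM, the helicase of the dissolving complex (chromosome 15, 90717327 to 90816165), had 280.5, 155 and 149.8 normalized counts with anlotinib, against 587, 584 and 532 with DMSO (-1.60, SE 0.19, limma adjusted p = 0.000114). RMI2, a small subunit of that complex (chromosome 16, 11249619 to 11381662), had 189.7, 117 and 97.5 with anlotinib, against 548, 465 and 439 with DMSO (-1.89, SE 0.20, adjusted p = 3.80e-05). RMI1, to which RMI2 binds, had 198, 164 and 185 with anlotinib, against 350.2, 320.3 and 338 with DMSO, and fell by 0.88 (adjusted p = 0.00023). The ratio of RMI1 to RMI2 per kilobase was 1.08, 1.46 and 1.97 with anlotinib and 0.661, 0.713 and 0.796 with DMSO, without overlap.

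MUS81, the catalytic subunit of a nuclease that cuts joined molecules, had 572, 473 and 432 normalized counts with anlotinib, against 588, 560.1 and 626 with DMSO. Anlotinib library 1 lay within the DMSO range, and MUS81 did not pass (-0.27, 95% interval -0.52 to -0.02, adjusted p = 0.106), but did without anlotinib replicate 1 (adjusted p = 0.0057). EME1, its partner, had 167, 108 and 121 with anlotinib against 269.9, 218 and 233 with DMSO, and fell by 0.87 (adjusted p = 0.0026). The ratio of MUS81 to EME1 per kilobase was 2.05 to 2.63 with anlotinib and 1.31 to 1.62 with DMSO. CFL1 on the opposite strand of MUS81 and LRRC59 on that of EME1 share 13.9% and 16.4% of their exon bases. CFL1 and LRRC59 were at -0.48 and -0.41 (adjusted p = 0.0205 and 0.00803), with means over the libraries of 12761 and 3812 normalized counts. No strand setting is given for the counting, so the levels and changes of MUS81 and EME1, and their ratio, are uncertain.

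**Figure D3:**
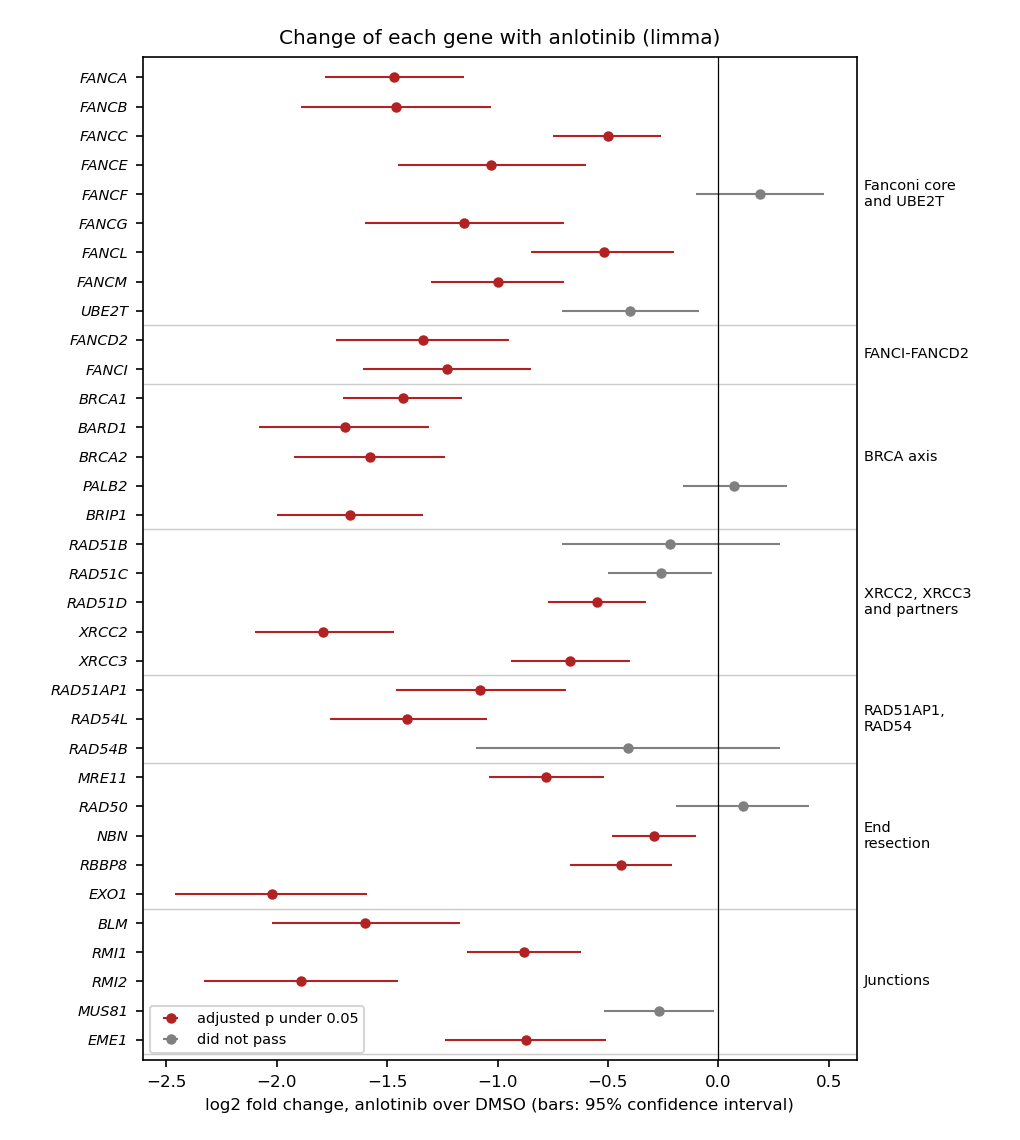
Log2 fold change of each of the 34 genes, anlotinib over DMSO, with its 95% confidence interval from limma, sorted by role. The 26 genes in red fell, from -0.29 for NBN to -2.02 for EXO1, and the 8 genes in grey did not pass, from -0.41 for RAD54B to 0.19 for FANCF.

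Beyond the 34 genes, the pathways hold others. For this list and those that follow, the shares among all genes tested were 12.7% lower and 10.5% higher. Of 41 further Fanconi and recombination genes, 17 were called lower, 0 higher and 24 neither, with a median log2 fold change of -0.25; the difference from the 34 genes was not tested, and both lists were chosen with results of these data known. MCM8, a helicase of recombination, was 2.31-fold lower, with 641, 453 and 452 normalized counts with anlotinib against 1183, 1214 and 1132 with DMSO (limma adjusted p = 3.42e-05). FIGNL1, an ATPase that acts in recombination, was 2.28-fold lower (adjusted p = 7.43e-05). RPA1, RPA2 and RPA3, the subunits of the protein that coats single-stranded DNA, were among those that fell.

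Other repair pathways were lower in part. The counts below stand against 12.7% of all genes tested called lower and 10.5% called higher. Of 20 tested genes of end joining and the 53BP1 pathway, 6 fell and 2 rose, with a median of -0.21; PRKDC, the DNA-dependent kinase, fell by 0.67, and TDP2, which frees trapped topoisomerase, rose 1.7-fold (limma adjusted p = 0.000341 and 0.000111). The other gene that rose, the ligase gene LIG4, had an adjusted p of 0.046, and 1 to 3 genes of this list rose depending on the alternative, 1 of them without anlotinib replicate 2 or 3 or DMSO replicate 1 or 3. Of 22 genes of excision and mismatch repair, 8 fell and 1 rose, with a median of -0.11; UNG, the uracil glycosylase, was 2.88-fold lower and MSH6, a mismatch sensor, fell by 0.96 (adjusted p = 8.73e-07 and 7.42e-06). In this list 5 genes fell without anlotinib replicate 2 or DMSO replicate 1, and 4 without DMSO replicate 2 or 3. Of 18 genes of damage signalling, 11 fell and 2 rose, with a median of -0.41; TOPBP1, an activator of the kinase ATR, fell by 0.97 and CLSPN, encoding claspin, was 4.61-fold lower (adjusted p = 1.69e-05 and 2.48e-05). Without anlotinib replicate 2, 7 damage signalling genes fell and 0 rose; 0 also rose with DESeq2 or without DMSO replicate 1 or 3, and 1 rose without anlotinib replicate 3 or DMSO replicate 2.

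**Figure D4:**
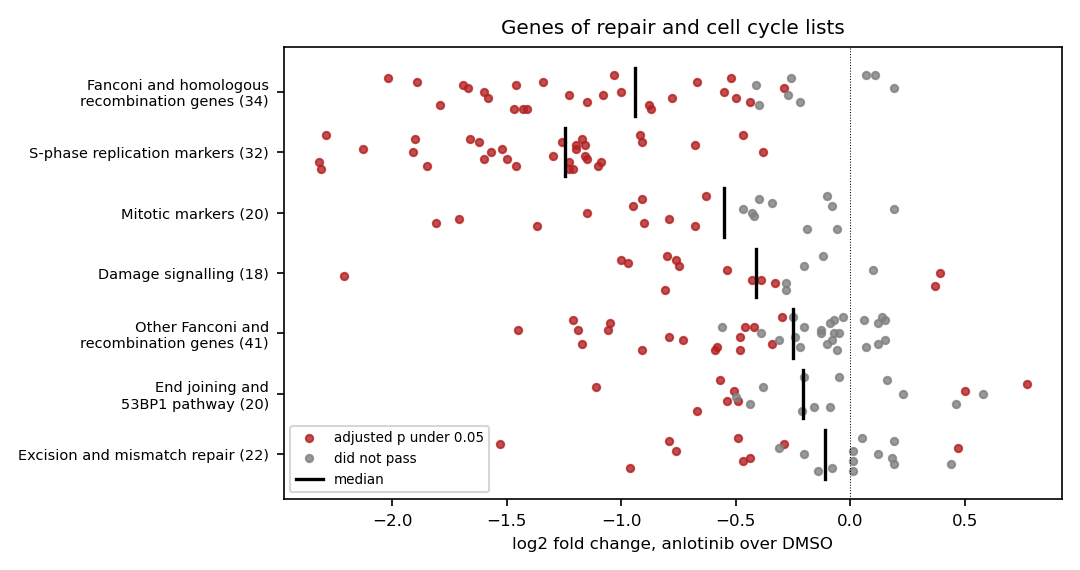
Log2 fold change, anlotinib over DMSO, of every tested gene of the 34 Fanconi and recombination genes and of 6 other lists. Each point is a gene, red where it passed, and the black bar is the median, which was -0.94 for the 34 genes, -1.25 for the S-phase markers and -0.11 for excision and mismatch repair.

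Markers of S phase moved with these genes, and mitotic markers did so in part. All 32 S-phase replication markers tested fell, with a median log2 fold change of -1.25, for example MCM6, a subunit of the replicative helicase, at 2.86-fold lower, and HELLS, a chromatin remodeller, at 3.16-fold lower (limma adjusted p = 3.26e-07 and 1.31e-06). Their summed level was 53.7%, 39.4% and 36.8% of the DMSO mean in anlotinib libraries 1, 2 and 3, against 106%, 96.1% and 97.8% in DMSO libraries. Of 20 mitotic markers, 10 fell and 0 rose, with a median of -0.55; CDK1, the mitotic kinase, was 3.28-fold lower and TOP2A 3.51-fold lower (adjusted p = 0.000481 and 0.000551). Without anlotinib replicate 1, 18 of the 20 fell. With all libraries, CCNB1, CCNB2, PLK1 and AURKA were among the 10 that did not pass, at -0.06, -0.08, -0.10 and 0.19. The summed level of the 20 was 84.9%, 50.9% and 46.8% of the DMSO mean in anlotinib libraries 1, 2 and 3, against 96.5%, 108% and 95.7% in DMSO libraries. TOP2A and MKI67, with the largest DMSO means of the list (12351 and 9209), weigh most in this sum. Their means with anlotinib were 3925 and 5127. Anlotinib library 1 was the highest anlotinib library in these sums as in those of the 26 genes. The part of a change in the cell cycle in the decrease of the 34 genes was not tested.

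**Figure D5:**
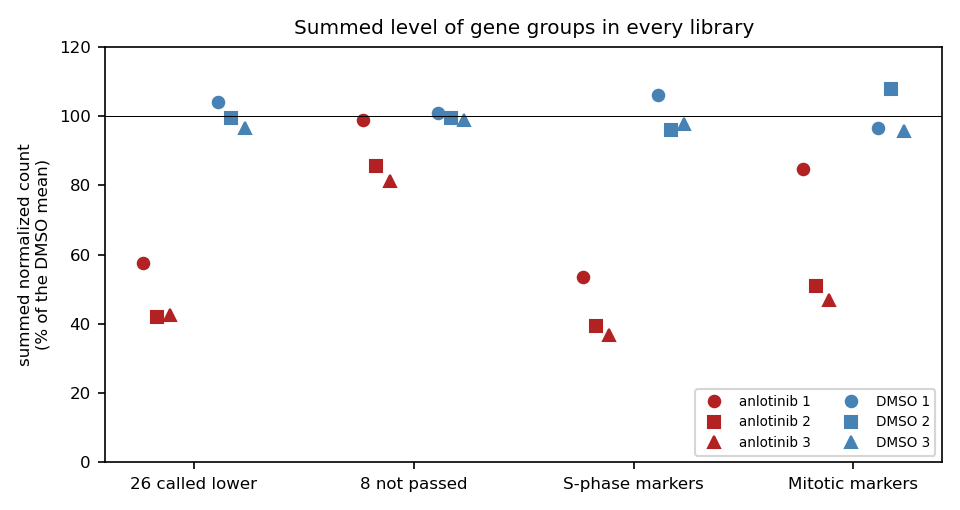
Summed normalized count of gene groups in every library, as a percentage of the mean of the 3 DMSO libraries, with anlotinib libraries in red and DMSO libraries in blue. The 26 genes that fell stood at 41.9% to 57.5% in anlotinib libraries, the 8 that did not pass at 81.3% to 98.9%, and the S-phase markers at 36.8% to 53.7%.

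Of 16 transcription factors and regulators of the cell cycle, 9 fell and 1 rose, with a median of -0.47. E2F1, E2F2, E2F7 and E2F8 were among the 9, and E2F1 had 437, 224 and 180 normalized counts with anlotinib, against 1149, 939.6 and 988 with DMSO, a 3.91-fold decrease (limma adjusted p = 0.000114). RBL1, encoding the pocket protein p107, was 3.26-fold lower (adjusted p = 1.41e-05). The gene that rose was CDKN1A, encoding the cell cycle inhibitor p21, with 9139, 9874 and 7941 with anlotinib against 2766, 3665 and 3296 with DMSO (2.78-fold, adjusted p = 4.81e-06). Of 8 clustered histone genes that were picked by name, 7 were tested and rose, among them HIST1H2BK at 2.75-fold and HIST1H1C at 2.86-fold (adjusted p = 2.48e-05 and 2.95e-05), and their summed level was 235%, 309% and 292% of the DMSO mean with anlotinib, against 94%, 105% and 101% with DMSO. Some clustered histone genes, HIST1H1C and HIST1H2BK among them, are known to give polyadenylated transcripts outside S phase, and the libraries were made with an mRNA kit, so these 7 genes do not stand for the histone genes at large. Their part in the decreases of the 34 genes was not tested.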

How the data were processed

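The data are RNA sequencing of A549 cells, 3 anlotinib and 3 DMSO libraries. No label says that libraries of a group are separate cultures, so the p-values reflect the spread between these libraries, which may be technical. Per the labels' protocols, Trizol and a SMARTer mRNA library kit were used. For the aligner, the counter and the strand setting, the sources used here give nothing. The build mm9 (mouse) stands in the submitters' processing notes, but the identifiers are human, and coordinates of 30477 of 30483 genes equal those of GENCODE 29 on GRCh38. The authors deposited a signal, namely reads divided by 1 size factor per library: 100% of values are whole multiples of 1 step per library, to within 1e-06 of a whole number. A read is worth 0.887 to 1.07 normalized counts. Log2 fold changes in the joint table are deposited values, made with a tool the header does not name. Each p-value beside them was deposited too. For the genes described here, DESeq2 on the recovered reads gave the same log2 fold changes, for example -1.45 for FANCA. Gene lengths in the joint table gave levels per kilobase. For all 34 genes they equal the summed exon bases of GENCODE 29, so such levels depend on the annotated exons.

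Treatment was the only term of limma-trend, with a pseudocount of 1 and a minimum mean of 10 normalized counts. The members, lists, tests and alternatives were chosen with earlier results of these data known. The procedure was tested on simulated data with the same fixed dispersion for every gene and both groups. That test does not cover the unequal spread of the real libraries. Replicates differed by more than sampling noise. The chi-square over its degrees of freedom was 9.3 to 20.8 between anlotinib libraries and 3.7 to 6.24 between DMSO libraries. The fit took a common variance for both groups, so its SEs, intervals and p-values do not reflect this difference in spread. All 34 members are described. Of each context list the 2 genes with the smallest p, and CDKN1A, were named. For the lists of A549 markers and of markers of other cell types, every gene was named. E2F1, E2F2, E2F7, E2F8, RPA1, RPA2, RPA3, LIG4 and genes that overlap members were named after their values were seen. The same holds for CCNB1, CCNB2, PLK1, AURKA and MKI67. HIST1H3D, COL1A2, CD3E and HBB were not analysed here. Alternatives covered the pseudocount, filter and scaling, a replicate block, leaving out each library, and edgeR, DESeq2 and limma-voom on the recovered reads. Versions were limma 3.58.1, DESeq2 1.42.0 and edgeR 4.0.16 under R 4.3.3, and scipy 1.17.1, pandas 2.3.3 and matplotlib 3.10.9 under Python 3.11.15.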

Additional observations from a re-analysis of the deposited data

How the results depend on the processing

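The number of the 34 genes called lower was 25 to 27 under the pseudocounts, filters, scalings, count tests and replicate blocks tried, and 23 to 29 with 1 library left out; 0 were called higher under any of these. Their median log2 fold change was -1.06 to -0.87. Of the 26 genes that fell, 23 kept the call under all 18 alternatives, and FANCL, NBN and RBBP8 lost it under at least 1. UBE2T, RAD51C and MUS81 gained a call without anlotinib replicate 1, and UBE2T also with the replicate block (adjusted p = 0.031). The number of all genes called was 3648 with all libraries, 5473 without anlotinib replicate 1, 1979 without anlotinib replicate 2, and 2288, 2259 and 2313 without DMSO replicates 1, 2 and 3; the cause was not tested. Scaling by library totals gave 2075 genes higher and 1553 lower, against 1645 and 2003 as deposited, and moved the median over all genes to 0.06. With replicate number as a block, 27 of the 34 genes and 3552 of all genes were called, and edgeR with the block, added after seeing the data, also gave 27. Same-numbered libraries did not deviate together (correlations -0.0407, 0.0259 and -0.00286), so the numbers were not taken as pairs. Over the alternatives, 4 to 10 excision and mismatch repair genes and 7 to 11 damage signalling genes were called lower, and 0 to 2 damage signalling and 1 to 3 end joining genes higher. RAD54B and RAD51B had under 70 normalized counts in every library, and RAD54B was not tested at a minimum mean of 50.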
